A study of Mus musculus with 12 samples.

Results

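The Cyp2 and Cyp4 genes encode the members of 2 large families of cytochrome P450 enzymes, and they were followed here across small intestine (SI) and large intestine (LI), in freshly isolated crypts (tissue) and in monolayers cultured for 24 h. The members were all genes whose mouse symbol, looked up from the Ensembl gene ID, starts with Cyp2 or Cyp4 followed by a lower-case letter, without the 27 names that end in -ps. This rule gave 70 genes of the 55487 in the table, 49 in Cyp2 and 21 in Cyp4. Of these, 69 are annotated as protein coding and 1, Cyp4x1os, is an antisense RNA of Cyp4x1, whose reads cannot be told from those of Cyp4x1 if strand was not used. The rule used no measured level, but it was set with earlier results of these data known.

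RNA was sequenced from C57BL/6 mice in 4 groups of 3 libraries, namely tissue and monolayers of SI and tissue and monolayers of LI. Per the study, tissue RNA came from 3 mice, and each monolayer library from pooled wells of primary cells. All mice were 6 to 10 weeks old, of both sexes. For monolayers, crypts were first seeded on Matrigel in a medium that also held 3 small-molecule inhibitors. They were then kept without drug in medium with Wnt3a, EGF, Noggin and R-spondin-1. The jejunum gave the SI crypts, which were released with EDTA. LI pieces of the same mice were also digested with collagenase and dispase, in medium with such an inhibitor. Region and isolation method therefore cannot be told apart. The labels name no transgene or deletion. Since the samples are bulk RNA, fewer cells of a type and less RNA per cell cannot be told apart.

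P450 enzymes are heme proteins of the endoplasmic reticulum that insert 1 oxygen atom into a substrate and take their electrons from P450 oxidoreductase (Por), with cytochrome b5 as a second donor. Many Cyp2 enzymes oxidise drugs and other foreign compounds, and several convert arachidonic acid to epoxides, while Cyp4 enzymes mainly hydroxylate fatty acids and eicosanoids at or near the terminal carbon. CYP2B and CYP2C enzymes, together with CYP3A enzymes, can hydroxylate cyclophosphamide, the prodrug whose intestinal activation the study examined. The mouse families have expanded by tandem duplication, and most members stand in clusters. Cyp2c lies on chromosome 19, Cyp2d on chromosome 15 and most of Cyp4f on chromosome 17. On chromosome 4, the Cyp2j cluster stands apart from that of Cyp4a, Cyp4b1 and Cyp4x1.

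The libraries held between 59016196 and 76216530 counts. Levels are given as CPM, the counts of a gene scaled to a common library total, on library sizes scaled by TMM. A gene without a count could still have had up to 3, which is 0.0391 to 0.0525 CPM depending on the library. This limit covers counting error only. Of the counts from 1 to 20, 73.4% to 77.4% were even, and whether both mates of a pair were counted is not given in the sources used here. If each pair gave 2 counts, the limit would be 0.0783 to 0.105 CPM, and every fold given below as "at least" would be lower by the same factor (79.3 in place of 159 for Cyp2f2). Mitochondrial genes took 4.56% to 9.16% of counts in SI tissue and 0.472% to 2.59% elsewhere. The summed level of 10 enterocyte markers ranged from 16187 to 25397 CPM (SI tissue), 5614 to 5822 (SI monolayers), 394 to 587 (LI tissue) and 184 to 270.2 (LI monolayers). That of 6 goblet markers was 5483 to 8748, 4550 to 4671, 15307 to 19505 and 1491 to 1671 CPM in the same order, and that of 10 immune markers was 436 to 516, 52.0 to 57.3, 44.0 to 53.1 and 3.65 to 5.53 CPM. The 10 hepatocyte markers summed to 1286 to 1474, 369 to 382, 58.9 to 89.9 and 21.4 to 29.2 CPM. Most of this in SI was Cps1 (1278 to 1465 CPM in SI tissue), a urea cycle enzyme also made by enterocytes, and in LI tissue Tat (22.0 to 35.6 CPM) and Ttr (16.4 to 29.5 CPM) added to it. Apoh reached 4.14 CPM in SI tissue, Alb at most 0.730 CPM, and Ahsg, Fga and Fgb had no library above 0.0350 CPM. The LI markers Hoxb13 and Hoxd13 and the SI marker Gata4 were highest in the regions named by the labels. By the test given below, 4 of 6 SI markers were higher in SI tissue and 5 in SI monolayers, and none was lower. The shares of all tested genes called higher were 11.6% and 12.4%. Slc10a2 was called in neither, with means of 18.3 (SI tissue), 8.13 (LI tissue), 92.2 (SI monolayers) and 84.4 CPM (LI monolayers). Pdx1 was not called in tissue. The part of these cell types in the results was not tested.

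Of the 70 members, 44 passed the filter on low counts and were tested, and 8 others reached a mean of 3 counts in a group but were not tested. Another 7 stayed under that limit, and 11 had no count in any library. The members without a count were Cyp2a4, Cyp2a5, Cyp2a12, Cyp2a22, Cyp2b23, Cyp2c37, Cyp2c50, Cyp2c54, Cyp2j7, Cyp4a12b and Cyp4a31, so the whole Cyp2a subfamily was not detectable at this depth. Those under the limit were Cyp2b9, Cyp2b19, Cyp2g1, Cyp4a12a, Cyp4a14, Cyp4a30b and Cyp4x1os, with no library above 0.0869 CPM. The 8 that were detected but not tested, Cyp2ab1, Cyp2d40, Cyp2j5, Cyp2j8, Cyp2j11, Cyp2j12, Cyp4a10 and Cyp4a32, reached 0.909 CPM at most. That highest value was of Cyp4a10, a fatty acid omega-hydroxylase and a known target of PPARA, which had 0.909, 0.123 and 0.483 CPM in SI tissue and no count in LI tissue or LI monolayers. Of the tested members, 24 had a mean of at least 1 CPM in SI tissue and 24 in SI monolayers, and in LI the numbers were 27 (tissue) and 20 (monolayers).

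Over the 70 members, the summed level was 3168, 2589 and 1963 CPM in the libraries of SI tissue and 2751, 2669 and 2631 CPM in SI monolayers. It was 1534, 1863 and 1483 CPM in LI tissue and 466, 468 and 453 CPM in LI monolayers. LI monolayers were thus below every other library, with a mean of 462 ± 8.59 (SD, n = 3) against 1627 ± 206 in LI tissue, while the ranges of SI tissue and SI monolayers overlapped. In SI, Cyp4f genes gave 1183 ± 181 CPM (tissue) and 906 ± 10.9 CPM (monolayers), and in LI 340.1 ± 17.7 CPM (tissue) and 121 ± 1.42 CPM (monolayers). Cyp2c genes gave 374 ± 135, 1008 ± 61.4, 530.4 ± 251 and 142 ± 5.47 CPM in the same order, and Cyp2d genes 175 ± 68.4, 102 ± 2.14, 503 ± 68.4 and 134 ± 12.3 CPM. The make-up of the sum therefore differed by group, with Cyp4f first in SI tissue, Cyp2c in SI monolayers, and Cyp2c and Cyp2d in LI tissue.

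**Figure D1:**
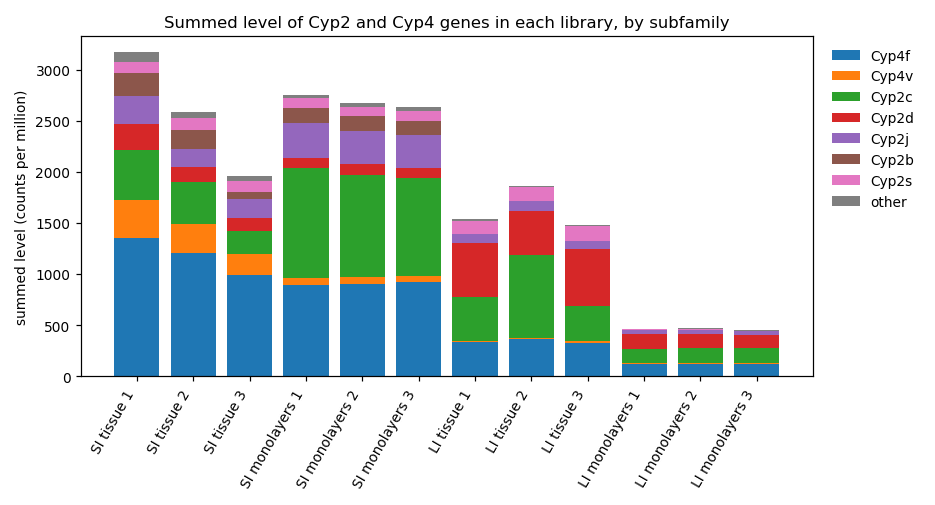
Summed level (CPM, linear axis from 0) of the 70 Cyp2 and Cyp4 genes in each of the 12 libraries, stacked by subfamily. The 3 bars of LI monolayers end between 453 and 468 CPM, below those of LI tissue (1483 to 1863), and Cyp2d (red) is largest in LI tissue.

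Levels of different genes were compared per kilobase of exon. In SI tissue the leading member was Cyp4f14, a fatty acid omega-hydroxylase, with 357 CPM per kb, followed by Cyp2c65 (87.2), Cyp2d26 (84.3), Cyp4v3 (75.2) and Cyp2b10 (74.7). In SI monolayers Cyp4f14 led again with 265 CPM per kb, followed by Cyp2c55 (138), Cyp2c29 (112), Cyp2c65 (95.1) and Cyp2c66 (93.5). In LI tissue the order was Cyp2c55 with 196 CPM per kb, Cyp2d34 (112), Cyp4f14 (60.9), Cyp2d10 (45.3) and Cyp2c65 (43.6), and in LI monolayers it was Cyp2c55 (63.6), Cyp2d34 (34.9), Cyp4f14 (21.5), Cyp4f16 (13.4) and Cyp2j6 (10.9). The 5 leading members held 67.4%, 65.9%, 69.6% and 77.8% of the summed CPM per kb of all members, in the same order of the groups. Places 2 to 5 in SI tissue lay within the spread of the libraries: Cyp2c65 ranged from 115 to 208 CPM and Cyp2b10 from 66.9 to 222 CPM.

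**Figure D2:**
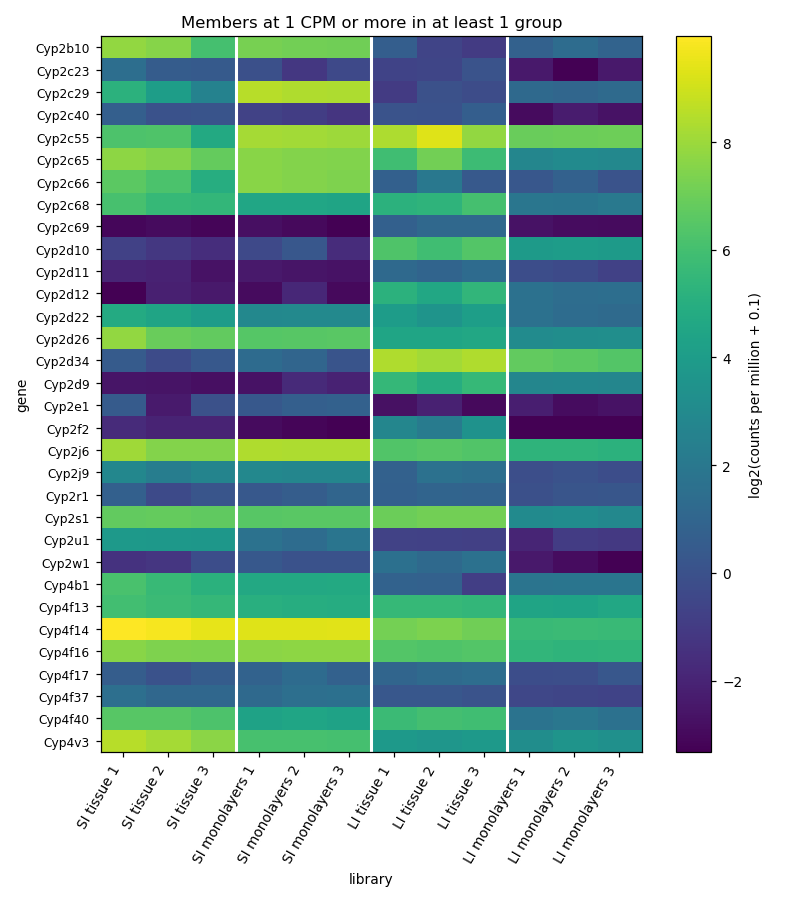
Level of the 32 members with a mean of at least 1 CPM in at least 1 group, as log2(CPM + 0.1) in each library (columns, grouped by white lines). Cyp4f14 is the brightest row in SI, Cyp2d9, Cyp2d10, Cyp2d12 and Cyp2d34 are bright in LI and dark in SI, and the columns of LI monolayers are darker than those of LI tissue for most rows.

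The regions were compared first in tissue. SI tissue had more RNA than LI tissue for 19 of the 44 tested members and less for 10, whereas 15 were not called (by edgeR's quasi-likelihood test, Benjamini-Hochberg adjusted p under 0.05 and a log2 difference of 1 or more either way). These are 43.2% and 22.7% of the tested members, against 11.6% of all 19581 tested genes higher and 11.1% lower in SI tissue. The higher members included Cyp2b10, Cyp2c29, Cyp2c66, Cyp2d26, Cyp2u1, Cyp4b1, Cyp4f14 and Cyp4v3. The lower ones were Cyp2c55, Cyp2c69, Cyp2d9, Cyp2d10, Cyp2d11, Cyp2d12, Cyp2d34, Cyp2f2, Cyp2w1 and Cyp4x1. In monolayers the balance moved further to SI, with 30 members higher in SI monolayers, 6 lower and 8 not called. That is 68.2% and 13.6% of the tested members, against 12.4% and 8.88% of all tested genes. The median log2 fold change of the tested members was 0.55 in tissue and 2.75 in monolayers, and that of all tested genes was 0.06 and 0.02. A member that passed the filter through the group where it is high had to differ, so the counts were also taken over the 23 members with at least 10 counts in every library: 12 were higher and 3 lower in SI tissue, and 18 were higher and 2 lower in SI monolayers. Of all 14385 genes tested under this filter, 8.49% were higher and 9.62% lower in SI tissue, and 9.29% and 7.69% in SI monolayers.

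The Cyp2d subfamily was split by region. Cyp2d enzymes are the mouse relatives of human CYP2D6, which oxidises many basic drugs. Cyp2d34 (ENSMUSG00000094559.2, GRCm38 chr15:82615965-82620946, minus strand) had 329.8, 274 and 330.2 CPM in LI tissue and 1.33, 0.709 and 1.14 CPM in SI tissue. It had 108, 98.8 and 84.1 CPM in LI monolayers and 2.36, 1.89 and 0.975 CPM in SI monolayers, so the regions did not overlap in either preparation. On the log2 scale, SI minus LI was -8.20 ± 0.31 (SE) in tissue (adjusted p = 2.28e-08) and -5.80 ± 0.28 in monolayers (adjusted p = 1.38e-07).

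Cyp2d10 (chr15:82402846-82407195, minus strand) had 79.9, 58.99 and 85.3 CPM in LI tissue and 15.1, 15.9 and 15.0 CPM in LI monolayers, against 0.234 to 0.490 CPM in SI tissue and 0.223 to 1.13 CPM in SI monolayers. Cyp2d9 (chr15:82433437-82456845, plus strand) had 46.4, 31.1 and 47.5 CPM in LI tissue and 6.81, 6.90 and 6.66 CPM in LI monolayers. In SI it stood at 0.0439 to 0.0699 CPM in tissue, about the limit that a count of 0 allows, and at 0.0583 to 0.204 CPM in monolayers. Cyp2d12 followed with 37.1, 24.7 and 43.4 CPM in LI tissue and 2.99, 2.56 and 2.74 CPM in LI monolayers, and with 0 to 0.123 CPM in SI tissue. All 3 genes were lower in SI tissue than in LI tissue, with log2 fold changes of -7.74 ± 0.40 for Cyp2d10 (adjusted p = 1.62e-07), -9.45 ± 0.28 for Cyp2d9 (adjusted p = 1.45e-12) and -8.87 ± 0.47 for Cyp2d12 (adjusted p = 3.7e-08). The sizes for Cyp2d9 and Cyp2d12 rest on a few counts in SI tissue. Cyp2d11, the least abundant of these, had 1.82 to 2.43 CPM in LI tissue and 0.0586 to 0.157 CPM in SI tissue.

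Cyp2d26 (chr15:82790101-82794294, minus strand) went the other way. It had 223, 122 and 108 CPM in SI tissue and 88.9, 92.7 and 93.1 CPM in SI monolayers. The values of LI were 22.4, 22.7 and 24.8 CPM for tissue and 8.38, 9.13 and 9.44 CPM for monolayers. The libraries of SI lay above those of LI in both preparations, with log2 fold changes of 2.69 ± 0.25 in tissue (adjusted p = 1.42e-05) and 3.35 ± 0.26 in monolayers (adjusted p = 4.69e-06). Cyp2d22 had means of 21.8 ± 6.08 CPM in SI tissue and 15.0 ± 2.95 CPM in LI tissue (SD, n = 3), a log2 difference of 0.54 ± 0.19 that did not reach the fold limit, and it was higher in SI monolayers than in LI monolayers by 1.52 ± 0.21 (adjusted p = 4.86e-05).

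The sequences before the RefSeq start sites of 3 of these genes are shown because Cyp2d9 and Cyp2d10 were high in LI and Cyp2d26 in SI. They come from GRCm38.p6 and run 5′ to 3′ on the gene's strand, over chr15:82452127-82452376 (plus) for Cyp2d9, chr15:82407195-82407444 (minus) for Cyp2d10 and chr15:82794246-82794495 (minus) for Cyp2d26. Capitals mark a match to AGGNCAAAG, a direct repeat bound by PPARA-RXRA and by HNF4. The start of Cyp2d9 in RefSeq lies inside the longer gene span given above.
Cyp2d9: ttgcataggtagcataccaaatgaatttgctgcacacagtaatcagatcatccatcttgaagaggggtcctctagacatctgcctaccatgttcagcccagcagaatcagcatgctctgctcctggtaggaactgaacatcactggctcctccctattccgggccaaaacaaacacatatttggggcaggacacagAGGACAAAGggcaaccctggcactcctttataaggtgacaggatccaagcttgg
Cyp2d10: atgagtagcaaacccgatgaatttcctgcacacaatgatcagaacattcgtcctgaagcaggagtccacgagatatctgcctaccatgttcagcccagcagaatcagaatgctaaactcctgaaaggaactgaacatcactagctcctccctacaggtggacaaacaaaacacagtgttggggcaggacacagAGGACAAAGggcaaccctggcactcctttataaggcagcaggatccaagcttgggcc
Cyp2d26: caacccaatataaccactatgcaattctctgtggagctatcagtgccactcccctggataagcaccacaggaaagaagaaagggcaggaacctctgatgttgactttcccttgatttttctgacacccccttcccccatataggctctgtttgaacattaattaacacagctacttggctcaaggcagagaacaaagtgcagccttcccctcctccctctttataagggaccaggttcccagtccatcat
The match stands at -54 in Cyp2d9 and at -57 in Cyp2d10, counted back from the start site, and Cyp2d26 has no match in its window. The aligned letters of Cyp2d26, at -60, lack 2 letters of the motif (G2 and G3). Without gaps, Cyp2d26 reads agaacaaag at this place, a near match to the motif. Of all 32851 RefSeq promoter windows of 300 bases, 2.04% hold these letters on either strand. Over the 250 bases shown, Cyp2d9 and Cyp2d10 were identical in 83.0% of the aligned columns, gaps included, and Cyp2d9 and Cyp2d26 in 56.4%. RefSeq windows for Cyp2d12 and Cyp2d34 were not used here.

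In the Cyp2c cluster, which holds epoxygenases and hydroxylases of arachidonic acid and of drugs, neighbouring genes had different patterns. Cyp2c66 (chr19:39113898-39187072, plus strand) had 96.3, 73.6 and 31.5 CPM in SI tissue and 198, 181 and 167 CPM in SI monolayers, against 1.21 to 3.84 CPM in LI tissue and 0.971 to 1.67 CPM in LI monolayers. Its SI and LI libraries were far apart, by 4.93 ± 0.54 on the log2 scale in tissue (adjusted p = 6.2e-05) and 7.19 ± 0.61 in monolayers (adjusted p = 1.12e-05). Its neighbour Cyp2c65 (chr19:39061015-39093944, plus strand), whose coding sequence is 96.3% identical, had 208, 182 and 115 CPM in SI tissue but also 59.6, 138 and 54.3 CPM in LI tissue. The ranges of Cyp2c65 in the tissues overlapped, and its log2 fold change of 1.001 ± 0.36 (adjusted p = 0.0461) lay at the limit. That call was lost with any of 10 of the 12 libraries left out. These were SI tissue replicates 1 and 2, LI tissue replicates 1 and 3 and all 6 monolayer libraries, with log2 fold changes of 0.77 to 0.94 and adjusted p from 0.0801 to 0.137. In monolayers, by contrast, Cyp2c65 had 196, 181 and 173 CPM in SI and 6.75, 8.21 and 7.24 CPM in LI, a log2 fold change of 4.63 ± 0.43 (adjusted p = 2.12e-05).

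Since reads of Cyp2c65 and Cyp2c66 could be confused, their shared sequence was counted. Of all windows of 50 bases in their exons, 20.6% in Cyp2c65 and 24.0% in Cyp2c66 occur unchanged in another gene, mostly in each other. The 250 bases before their RefSeq starts are shown as an abundant pair with similar coding sequence and different levels in LI tissue, over chr19:39060756-39061005 and chr19:39113648-39113897 of GRCm38.p6, both on the plus strand. Capitals mark CAAAGTCCA, a motif bound by HNF4.
Cyp2c65: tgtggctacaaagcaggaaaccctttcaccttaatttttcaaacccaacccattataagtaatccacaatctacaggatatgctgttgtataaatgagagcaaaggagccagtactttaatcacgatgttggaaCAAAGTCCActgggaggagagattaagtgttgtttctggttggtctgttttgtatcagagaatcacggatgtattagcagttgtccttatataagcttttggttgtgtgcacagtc
Cyp2c66: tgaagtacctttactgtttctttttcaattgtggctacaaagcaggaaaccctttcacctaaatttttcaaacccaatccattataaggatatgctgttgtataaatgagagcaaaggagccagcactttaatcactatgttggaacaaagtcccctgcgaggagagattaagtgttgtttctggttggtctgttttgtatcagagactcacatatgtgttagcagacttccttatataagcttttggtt
The motif stands at -116 in Cyp2c65. The aligned letters of Cyp2c66, at -104, are CAAAGTCCC and differ by 1 substitution, A9C, with Cyp2c65 first and positions counted from 1 at the 5′ end of the motif. The letters CAAAGTCCA, which can overlap AGGNCAAAG by 5 bases, occur in 0.475% of all RefSeq promoter windows, on either strand. Of the 21 members that the naming rule selects, 18 had a window, and besides Cyp2c65 only Cyp2c69 held this motif. The other motifs searched on both strands were GTTAATNAT for HNF1 (1 of the 18, Cyp4f40, and 0.801% of all windows), TTTATNG for CDX2 (3 of the 18, and 10.9%) and GCGTG, the core of AHR sites (5 of the 18, and 32.4%). The motif AGGNCAAAG was found in Cyp4f16 besides Cyp2d9 and Cyp2d10. Unlike these, Cyp4f16 was higher in SI than in LI, by 1.08 in tissue and 2.33 in monolayers on the log2 scale. The part of these letters in the levels was not tested.

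Cyp2c55 (chr19:39007019-39042693, plus strand), which hydroxylates arachidonic acid, was the one abundant Cyp2c gene that was higher in LI tissue. It had 323, 630.5 and 221 CPM in LI tissue and 77.0, 80.5 and 26.8 CPM in SI tissue, a log2 fold change of SI against LI of -2.67 ± 0.49 (adjusted p = 0.00151). In monolayers the order of the regions was the opposite, with 285, 275 and 264 CPM in SI and 122, 127 and 132 CPM in LI. The ranges did not overlap, but the log2 fold change of 1.12 ± 0.46 missed the threshold (adjusted p = 0.0753). It passed without SI tissue replicate 3 (adjusted p = 0.0271) and without LI tissue replicate 2 (adjusted p = 0.0414), whose libraries enter the shared estimate of the spread. The low Cyp2c69 was an LI tissue gene too, with 1.56, 2.13 and 2.15 CPM there and at most 0.0580 CPM in any library of the other groups, and 54.8% of its windows of 50 bases occur in other genes, so its reads may be split among them.

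**Figure D3:**
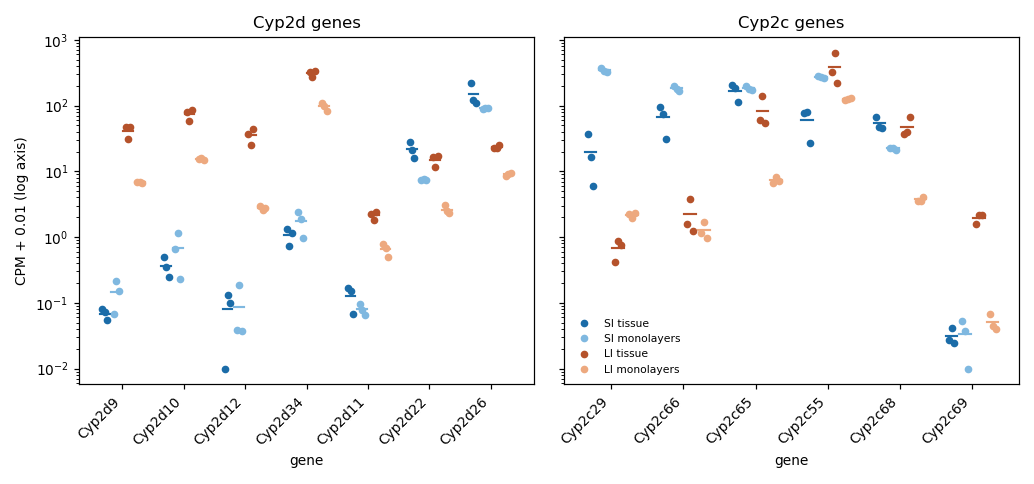
Level of Cyp2d and Cyp2c genes in each library as CPM + 0.01 on a log axis, with lines at the group means. Cyp2d34 and Cyp2d10 stand above 10 CPM in LI and at or below 2.36 CPM in SI, Cyp2d26 is higher in SI, and Cyp2c66 is 31.5 CPM or more in SI and at most 3.84 CPM in LI.

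Cyp2b10, the mouse CYP2B enzyme known as the classical target of the receptor CAR, had 222, 184 and 66.9 CPM in SI tissue and 154, 142 and 136 CPM in SI monolayers. LI tissue had 1.48, 0.557 and 0.391 CPM and LI monolayers 1.65, 2.51 and 1.77 CPM, so every SI library was above every LI library. SI exceeded LI by 7.61 ± 0.62 on the log2 scale in tissue (adjusted p = 8.34e-06) and by 6.20 ± 0.57 in monolayers (adjusted p = 1.96e-05). SI tissue replicate 3 was the lowest of its group for Cyp2b10, Cyp2c29, Cyp2c55, Cyp2c65 and Cyp2c66. The same library had the lowest sum of enterocyte markers in its group, 16187 CPM, and the highest sum of Paneth markers, 18548 CPM against a lowest value of 3843. Defa24 was at 1186, 2056 and 6324 CPM and Lyz1 at 1254, 2594 and 5391 CPM in SI tissue. The part of this difference in the results was not tested.

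Among the Cyp4 genes, no member above 1 CPM was called lower in SI than in LI, in either preparation. Cyp4f14 (ENSMUSG00000024292.15, chr17:32905070-32917342, minus strand) had 999.5, 884 and 706 CPM in SI tissue and 145, 163 and 133 CPM in LI tissue. It had 638, 637 and 651 CPM in SI monolayers and 51.0, 53.8 and 51.3 CPM in LI monolayers. SI exceeded LI by 2.55 ± 0.11 on the log2 scale in tissue (adjusted p = 3.61e-10) and 3.62 ± 0.11 in monolayers (adjusted p = 2.04e-11). Cyp4v3, the mouse relative of human CYP4V2, a fatty acid hydroxylase, had 367, 290.2 and 202 CPM in SI tissue and 12.5 to 14.4 CPM in LI tissue, a log2 difference of 4.39 ± 0.21 (adjusted p = 8.71e-08). Cyp4b1, which hydroxylates fatty acids and activates protoxins, had 72.0, 49.7 and 35.8 CPM in SI tissue and 1.70, 1.64 and 0.443 CPM in LI tissue, a log2 difference of 5.38 ± 0.42 (adjusted p = 4.21e-06). In monolayers the differences were 2.71 ± 0.20 for Cyp4v3 (adjusted p = 2.35e-06) and 2.92 ± 0.37 for Cyp4b1 (adjusted p = 0.000135). Cyp4f16 was at the fold limit in tissue with 1.08 ± 0.06, and that value was 0.997 to 0.998 without SI tissue replicate 1 or any of the 6 monolayer libraries.

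Cyp2u1, which hydroxylates long-chain fatty acids, had 14.5, 13.3 and 12.9 CPM in SI tissue and 0.525, 0.504 and 0.483 CPM in LI tissue (log2 fold change 4.75 ± 0.22, adjusted p = 4.19e-11). Cyp2j6, an epoxygenase, had 269, 178 and 183 CPM in SI tissue and 81.8, 92.2 and 81.8 CPM in LI tissue (1.30 ± 0.13, adjusted p = 9.68e-06), and its neighbour Cyp2j9 differed by 1.30 ± 0.19 (adjusted p = 2.81e-05). At the other end, Cyp2f2, an enzyme best known from airway club cells, had 6.69, 4.49 and 10.9 CPM in LI tissue and 0.146 to 0.210 CPM in SI tissue, a log2 fold change of -5.43 ± 0.40 (adjusted p = 5.99e-08).

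The tissue difference and the monolayer difference were set side by side, since they share no library. Of 44 tested members, 35 had the same sign in both. Cyp4a29, without a count in either tissue, has no sign there and is not among the 35. Of the 29 members called in tissue and the 36 called in monolayers, 24 were called in both (82.8% and 66.7%), and 23 of these went the same way, against 88.0% of the genes called in both among all tested genes. The exception was Cyp2w1, which had 2.20 to 3.04 CPM in LI tissue and 0.280 to 0.791 CPM in SI tissue, but 0.919 to 1.17 CPM in SI monolayers and 0 to 0.0869 CPM in LI monolayers. Across the 44 members, Pearson's r between both log2 fold changes was 0.81, and it was 0.51 across all tested genes. Genes share their libraries and are no replicates, so no p is attached.

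**Figure D4:**
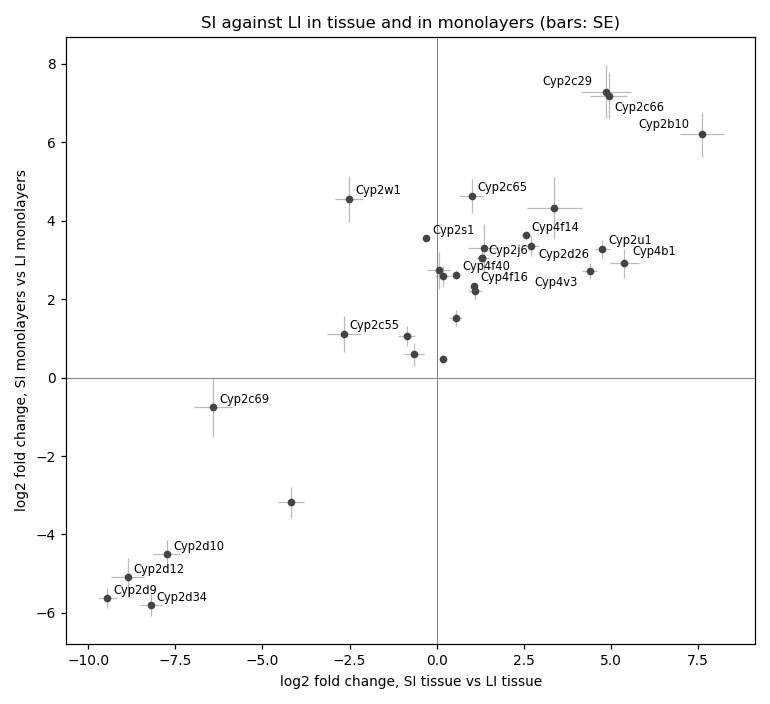
Log2 difference of SI minus LI, for tissue (x) and for monolayers (y), of the 31 members with a mean of at least 1 CPM in a group and at least 1 count in each group, with SE bars; names are those of the genes that the naming rule selects. Cyp2d9, Cyp2d10, Cyp2d12 and Cyp2d34 lie at the lower left, Cyp2b10, Cyp2c29 and Cyp2c66 at the upper right, and Cyp2w1 and Cyp2c55 at the upper left.

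In SI, 7 members were higher in monolayers than in tissue, 13 were lower and 24 were not called. These shares, 15.9% higher and 29.5% lower, are to be read against 9.71% and 16.4% of all tested genes. The median log2 fold change was -0.13 over the tested members and -0.05 over all tested genes. The largest rise among members above 1 CPM was that of Cyp2c29 (ENSMUSG00000003053.17, chr19:39269405-39330713, plus strand), a CYP2C enzyme abundant in mouse liver. It had 37.2, 16.8 and 5.91 CPM in SI tissue and 369.5, 333 and 326 CPM in SI monolayers, so each monolayer library was above each tissue library. Its log2 fold change was 4.11 ± 0.56 (adjusted p = 0.000228). Cyp2c55 rose from 26.8 to 80.5 CPM in tissue to 264 to 285 CPM in monolayers (2.16 ± 0.48, adjusted p = 0.00401), and Cyp2c66 rose by 1.44 ± 0.43 (adjusted p = 0.0193). Cyp2c65, between them on the chromosome, had a log2 fold change of 0.13 with an approximate 95% interval of -0.58 to 0.83. The 4 other members called higher had means of 1.003 CPM or less: Cyp2w1 (1.09 ± 0.41, adjusted p = 0.0325), Cyp2c38, Cyp2c39 and Cyp4a29. The call of Cyp2w1 was lost with any of 5 libraries left out, SI tissue replicates 1 (0.84, adjusted p = 0.11) and 2 (0.88, adjusted p = 0.114) and each replicate of SI monolayers (adjusted p from 0.0509 to 0.0936). Cyp4a29 had no count in SI tissue and 0.19, 0.434 and 0.655 CPM in SI monolayers, which is at least 8.96-fold higher than the limit of 3 counts per library.

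The largest falls in SI monolayers among members above 1 CPM were of Cyp2u1, Cyp4v3 and Cyp4f40. Cyp2u1 went from 12.9 to 14.5 CPM in tissue to 3.09, 2.48 and 3.48 CPM in monolayers (-2.17 ± 0.19, adjusted p = 4.45e-08). Cyp4v3 went from 202 to 367 CPM to 67.6, 67.5 and 66.4 CPM (-2.09 ± 0.19, adjusted p = 7.67e-06). Cyp4f40 had 92.8, 91.9 and 76.4 CPM in tissue and 19.9, 22.2 and 20.1 CPM in monolayers (-2.07 ± 0.10, adjusted p = 7.98e-11). For Cyp2u1, Cyp4v3 and Cyp4f40 the libraries of the groups did not overlap. Cyp4b1 fell by 1.02 on the log2 scale, from 35.8 to 72.0 CPM to 25.4 to 26.4 CPM (SE 0.32, adjusted p = 0.0234), a call that was lost with any of 7 libraries left out; without SI tissue replicate 1 it was -0.72 (adjusted p = 0.0826), and without any of the replicates of monolayers, SI or LI, it was -0.97 to -0.99. Cyp2d22 (-1.54 ± 0.19, adjusted p = 1.6e-05) and Cyp2c68 (-1.26 ± 0.23, adjusted p = 0.00106) were also lower. The summed enterocyte markers, given above, were lower in SI monolayers than in SI tissue as well, with 6 of 10 called lower. So were the immune markers, with 8 of 10, against 16.4% of all tested genes. Cyp4f14 (-0.43 ± 0.10), Cyp2d26 (-0.72 ± 0.23), Cyp2j6 (0.62 ± 0.13), Cyp4f16 (0.24 ± 0.06) and Cyp2s1 (-0.24 ± 0.06) differed by less than the fold limit with adjusted p from 0.00194 to 0.0246. Cyp2b10 had a log2 fold change of -0.13, with an approximate 95% interval of -0.96 to 0.69.

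In LI, 27 members were lower in monolayers than in tissue, 2 were higher and 15 were not called. The share of 61.4% lower compares with 23.5% of all tested genes, and the share of 4.55% higher with 14.5%. Over the 23 members with at least 10 counts in every library, 15 were lower and 1 was higher, against 19.7% and 13.7% of all genes under this filter. The median log2 fold change was -1.52 over the tested members and -0.05 over all tested genes. All 7 tested Cyp2d genes, all 3 tested Cyp2j genes, 7 of 9 Cyp4f genes and 7 of 12 Cyp2c genes were lower. Upper quartile scaling in place of TMM moved the median of all genes in this comparison from -0.05 to -0.17, and the counts became 28 lower and 1 higher.

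Cyp2s1, an enzyme of epithelia that metabolises retinoic acid and eicosanoids, had 128, 140.4 and 139 CPM in LI tissue and 7.98, 8.64 and 7.37 CPM in LI monolayers. In SI it stood at 111, 114 and 106 CPM in tissue and 91.5, 93.5 and 96.3 CPM in monolayers, so the libraries of LI monolayers were below all others. Its log2 fold change in LI was -4.09 ± 0.07 (adjusted p = 1.73e-16). Cyp4f40 fell from 52.2 to 64.8 CPM to 3.29, 3.77 and 3.03 CPM (-4.13 ± 0.11, adjusted p = 6.83e-14), a change in the same direction as in SI. Cyp2c65 fell from 54.3 to 138 CPM to 6.75 to 8.21 CPM (-3.51 ± 0.41, adjusted p = 6.02e-05), and Cyp2c68 from 37.2, 39.5 and 66.2 CPM to 3.56, 3.53 and 4.07 CPM (-3.68 ± 0.27, adjusted p = 8.44e-07). The Cyp2d genes that were high in LI tissue fell too. Their log2 fold changes were -3.66 ± 0.30 for Cyp2d12 (adjusted p = 7.4e-07), -2.62 ± 0.16 for Cyp2d9 (adjusted p = 1.38e-09), -2.29 ± 0.27 for Cyp2d10 (adjusted p = 4.06e-05) and -1.68 ± 0.22 for Cyp2d34 (adjusted p = 8.57e-05). They nevertheless stayed above their SI levels, as given above.

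Larger falls in LI were fitted for 4 members with few counts, Cyp2f2, Cyp4f18, Cyp2w1 and Cyp2c69. Cyp2f2 had 4.49 to 10.9 CPM in LI tissue and no count in any library of LI monolayers, which is at least 159-fold lower when set against the limit of 3 counts per library. Cyp2w1, a P450 described in fetal gut and colorectal tumours, went from 2.20 to 3.04 CPM to 0.0869, 0.0341 and 0 CPM (-5.99 ± 0.56, adjusted p = 8.64e-08). Cyp2c69 went from 1.56 to 2.15 CPM to 0.0294 to 0.0580 CPM (-5.52 ± 0.49, adjusted p = 4.1e-08). The monolayer levels of Cyp2w1 and Cyp2c69 lay around the limit that a count of 0 allows.

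Cyp4b1 was the one member above 1 CPM that was higher in LI monolayers, with 3.36, 3.47 and 3.44 CPM against 1.70, 1.64 and 0.443 CPM in tissue (1.44 ± 0.43, adjusted p = 0.0144). The other called member was Cyp4a29, at 0.116 CPM or less, a call that was lost with any of 7 libraries left out (all SI monolayers, all LI tissue and LI monolayers replicate 1; adjusted p from 0.0518 to 0.316). Cyp2c29 and Cyp2b10 also had higher values in each LI monolayer library than in each LI tissue library, with log2 fold changes of 1.68 ± 0.83 (adjusted p = 0.104) and 1.28 ± 0.70 (adjusted p = 0.139) that missed the threshold. Without SI tissue replicate 3 both passed it, with adjusted p = 0.0157 for Cyp2c29 and 0.0292 for Cyp2b10, and Cyp2c29 also passed without SI tissue replicate 1 (adjusted p = 0.0265). Goblet markers fell in LI monolayers in 6 of 6 genes and LI markers in 4 of 5, immune markers in 9 of 10. Enterocyte markers were lower in 2 of 10 genes, and of all tested genes 23.5% were called lower.

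**Figure D5:**
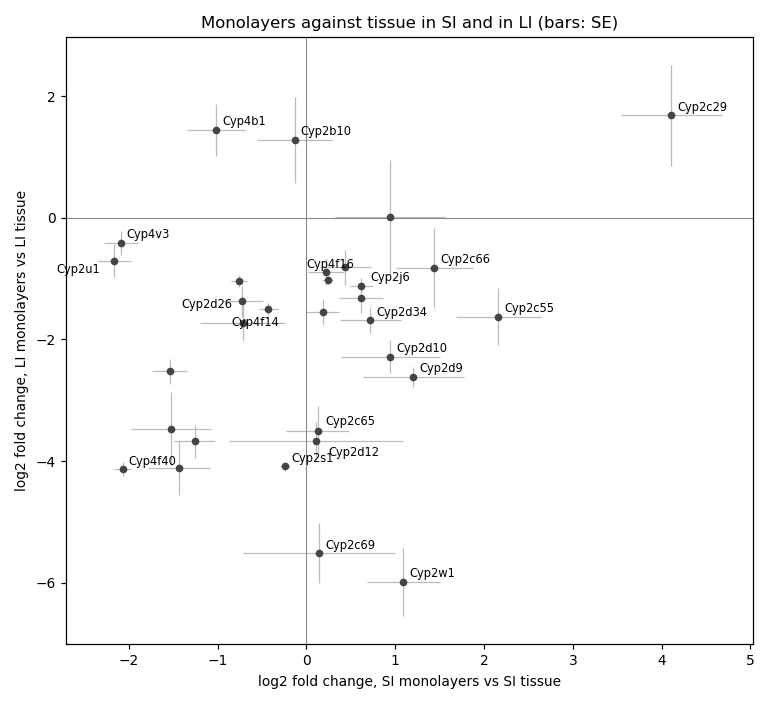
Log2 fold change of monolayers against tissue in SI (x) and LI (y) for 31 members with a mean of at least 1 CPM in a group and at least 1 count in each group, with SE bars; names as selected by the naming rule. Most points lie below 0 on the y axis, with Cyp2c55, Cyp2c66 and Cyp2w1 at the lower right, Cyp2c29 at the upper right and Cyp4b1 and Cyp2b10 at the upper left. Cyp2f2, without a count in LI monolayers, is not drawn.

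Whether the change from tissue to monolayers differed by region was tested as an interaction. The change was more positive in SI for 25 members and more positive in LI for 3, with 16 not called. That is 56.8% and 6.82% of the tested members against 11.4% and 8.51% of all tested genes. Members that passed the filter through the group where they are high add to these counts. Cyp2f2 and Cyp4f18, for example, had no count in LI monolayers. The number with at least 10 counts in every library is given further below, without direction or the share of all genes. Cyp2s1 had the smallest error, with a difference of 3.85 ± 0.09 on the log2 scale (adjusted p = 8.11e-14). Cyp2c55 rose in SI and fell in LI, and the difference was 3.79 ± 0.67 (adjusted p = 0.00166). That of Cyp2c65 was 3.63 ± 0.54 (adjusted p = 0.000605), that of Cyp2d9 3.82 ± 0.58 (adjusted p = 8.81e-05) and that of Cyp2w1 7.08 ± 0.71 (adjusted p = 8.09e-07). Cyp2c69 had 5.66 ± 1.12 (adjusted p = 0.000626), and Cyp2f2 was also called (adjusted p = 0.00527). Cyp2w1, Cyp2c69 and Cyp2f2 have few or no counts in at least 1 of the monolayer groups, so their sizes depend on the prior count. The call of Cyp2f2 was lost without SI monolayers replicate 1 (adjusted p = 0.0678). The 3 members with the opposite sign were Cyp4b1 (-2.46 ± 0.54, adjusted p = 0.0049), Cyp4v3 (-1.68 ± 0.27, adjusted p = 0.00076) and Cyp2u1 (-1.46 ± 0.33, adjusted p = 0.0019). For Cyp2c29 the difference of 2.42 ± 1.04 missed the threshold (adjusted p = 0.0919), and it passed without SI tissue replicate 1 (3.24, adjusted p = 0.00845) or 3 (1.99, adjusted p = 0.0323).

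The changes in SI and in LI also share no library. Of the 20 members called in SI and the 29 called in LI, 12 were called in both (60% and 41.4%), and 9 of these went the same way, against 93.5% of the genes called in both among all tested genes. The 3 that went opposite ways were Cyp2c55 and Cyp2w1, which rose in SI and fell in LI, and Cyp4b1, which did the reverse. Across the 44 members 22 had the same sign in both regions. Cyp2b13, Cyp2c38 and Cyp2c39, without a count in LI, have no sign there and are not among the 22. Pearson's r between both log2 fold changes was 0.52 across the members and 0.62 across all tested genes.

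Subfamilies with detected but low members are given by count. In Cyp2b, Cyp2b13 had 0.249 to 0.416 CPM in the 6 SI libraries and no count in LI. Against the limit of 3 counts per library, it was at least 8.95-fold higher in SI tissue and at least 6.84-fold higher in SI monolayers. Of its windows of 50 bases, 27.3% occur in another gene, most often Cyp2b10, which had 66.9 to 222 CPM in SI tissue. Whether reads of Cyp2b13 came from Cyp2b10 was not tested. Cyp2c38 and Cyp2c39 likewise had no count in LI and reached 0.962 and 0.460 CPM in SI monolayers, at least 16.2-fold and 7.70-fold above LI monolayers. Cyp4f18, a leukotriene hydroxylase of leukocytes, had 0.229 to 0.874 CPM in LI tissue and no count in LI monolayers, at least 12.6-fold lower. Cyp2e1, the ethanol-inducible P450, had 0.0925 to 1.29 CPM in SI tissue and 1.17 to 1.62 CPM in SI monolayers, and at most 0.133 CPM in LI. Of the 8 Cyp4a genes, several of which are PPARA targets in liver, Cyp4a29 was the one tested member. Cyp2r1, the vitamin D 25-hydroxylase, had 0.678 to 1.89 CPM in all 12 libraries.

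Shared sequence limits how far single genes can be told apart within some groups. Of windows of 50 bases in the exons, 72.1% of Cyp2c40, 54.8% of Cyp2c69, 52.8% of Cyp2c67 and 43.3% of Cyp2c68 occur in another gene, as do 40.5% of Cyp2d10, 37.2% of Cyp2d11, 29.0% of Cyp2d9 and 26.5% of Cyp4f16. For Cyp2c29 the share was 2.08%, for Cyp2c55 0.514%, and for Cyp2s1 and Cyp2f2 it was 0%. How reads with several matches were counted is not given in the sources used here, so values within the first groups are uncertain.

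Genes that P450 enzymes work with were taken as lists. Of 6 electron transfer partners, Por was called higher in SI monolayers than in SI tissue, with 477, 480.0 and 482 CPM against 213, 180.1 and 153 CPM (1.4 ± 0.10, adjusted p = 2.42e-08), and no partner was called lower. In LI no partner passed the fold limit, and Por had a log2 fold change of 0.76 ± 0.10 (adjusted p = 7.74e-06). SI exceeded LI for 3 of the 6 in tissue and for 3 in monolayers, against 11.6% and 12.4% of all tested genes. The shares of all tested genes called higher and lower were 9.71% and 16.4% in SI monolayers, and 14.5% and 23.5% in LI monolayers. Among heme synthesis genes, Uros (-1.09) and Urod (-1.14) fell and Cpox (1.71) rose in LI monolayers, and none of these 3 was called in SI. Of the epoxide hydrolases, which open the epoxides that Cyp2c and Cyp2j enzymes form, Ephx1 rose in SI monolayers from 8.65 to 13.4 CPM to 121 to 126 CPM (3.41 ± 0.13, adjusted p = 1.53e-10), and Ephx2 fell from 150.1 to 216 CPM to 31.0 to 32.5 CPM (-2.47 ± 0.12, adjusted p = 1.66e-09). Ephx4 fell in LI monolayers (-2.52 ± 0.31, adjusted p = 1.9e-06).

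Of 22 transcription factors known to act on P450 genes, 10 fell and 3 rose in LI monolayers (all tested genes: 23.5% and 14.5%). In SI monolayers 1 fell, Nr1h3 (-1.95), and 2 rose, Foxa1 (2.45) and Pparg (1.62), against 16.4% and 9.71% of all tested genes. Nr1h3 and Foxa1 went the same way in LI. Those that fell in LI were Nr1i2 (PXR), Nr1i3 (CAR), Ppara, Hnf4g, Cebpa, Foxa2, Foxa3, Nr1h4 (FXR), Nr1h3 (LXRA) and Cdx2, and those that rose were Ahr, Cebpb and Foxa1. Ppara had 6.82, 9.04 and 8.46 CPM in LI tissue and 1.62, 2.07 and 1.63 CPM in LI monolayers (-2.20 ± 0.14, adjusted p = 3.86e-10), and its change differed from that in SI by 1.77 ± 0.18 (adjusted p = 7.55e-07). Between the regions, Hnf4g had 271 to 311 CPM in SI tissue and 25.5 to 30.2 CPM in LI tissue (3.39 ± 0.07, adjusted p = 6.47e-15). Nr1i3 had 6.13, 7.94 and 10 CPM in SI tissue and 0.490 to 0.767 CPM in LI tissue (3.57 ± 0.29, adjusted p = 4.58e-08). Of the 18 tested genes among 31 other P450 genes, 10 were higher and 2 lower in SI tissue than in LI tissue. In monolayers 9 were higher and 2 lower in SI. The shares of all tested genes were 11.6% and 11.1% in tissue and 12.4% and 8.88% in monolayers. In LI, 4 of the 18 other P450 genes were lower and 3 higher in monolayers than in tissue. The numbers were 27 and 2 of the 44 Cyp2 and Cyp4 members, and 23.5% and 14.5% of all tested genes.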

How the data were processed

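Total RNA of 12 libraries in 4 groups of 3 was sequenced as paired-end reads. The counts per gene were made by the authors, who aligned reads to GRCm38 with STAR 2.7.9a and counted them with featureCounts 2.0.2 (versions from the submitters' processing notes). A second deposited table, the same counts scaled with DESeq2, was not used. Groups were taken from the sample labels.

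From the deposited counts, 19581 genes passed edgeR's filterByExpr by group and were fitted in 1 model of the 4 group means with TMM scaling and robust quasi-likelihood tests (edgeR 4.0.16, R 4.3.3), with Benjamini-Hochberg adjustment over all of them. The script was tested on simulated data. A gene was called at an adjusted p under 0.05 and a log2 fold change of at least 1 in either direction. Standard errors are the log2 fold change divided by the root of F. Fitted log2 fold changes use edgeR's default prior count. Exon lengths came from GENCODE, promoter windows from RefSeq.

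Values are given for the members with the largest called changes without overlap (3 each way per comparison, at least 1 CPM in every library of the higher group), the 5 leading members per group and 6 of the interaction. Members and lists were chosen with earlier results of these data known, and other members were named after their values were seen. Alternatives were DESeq2 1.42.0, upper quartile scaling, other filters, calls at any fold change, fits of 2 groups alone, a replicate block, halved counts and leaving out each library. Whether libraries of a group are separate cultures is not stated beyond pooled wells, so p-values measure the spread between these libraries. Sequences of other members were not analysed here. Some genes of the lists are not reported here.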

Additional observations from a re-analysis of the deposited data

Results flagged for a closer look

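The change from tissue to monolayers differed between SI and LI in the test of that difference for 25 members with a mean of at least 1 CPM in a group, each listed here as the SI change minus the LI change on the log2 scale. In the Cyp2c subfamily it was 1.95 for Cyp2c23, 2.68 for Cyp2c40, 3.79 for Cyp2c55, 3.63 for Cyp2c65, 2.26 for Cyp2c66, 2.42 for Cyp2c68 and 5.66 for Cyp2c69. In Cyp2d it was 3.23 for Cyp2d10, 3.77 for Cyp2d12, 2.40 for Cyp2d34 and 3.82 for Cyp2d9. Cyp2f2 had 8.55, with no count in LI monolayers, so that the size depends on the prior count. Cyp2w1 had 7.08 and, like Cyp2c69, few counts in LI monolayers, so these sizes depend on it too. Other Cyp2 genes had 1.74 (Cyp2j6), 1.73 (Cyp2j9), 1.26 (Cyp2r1), 3.85 (Cyp2s1) and -1.46 (Cyp2u1).

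Among Cyp4 genes it was 1.07 for Cyp4f14, 1.26 for Cyp4f16, 1.93 for Cyp4f17, 1.11 for Cyp4f37, 2.06 for Cyp4f40, -2.46 for Cyp4b1 and -1.68 for Cyp4v3. The call was lost for Cyp2c23 with any of 7 libraries left out (adjusted p from 0.0534 to 0.11), for Cyp2c66 with any of 8 (adjusted p from 0.0506 to 0.141) and for Cyp2d12 without SI monolayers replicate 2 (2.46, adjusted p = 0.234). Cyp4f14 had 0.95 without SI tissue replicate 3 and 0.99 without LI tissue replicate 2. Single samples far from their group were not looked for, since groups of 3 are too small.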

How the results depend on the processing

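With at least 10 counts in every library, 23 members were tested and the numbers called were 9 for SI monolayers against SI tissue, 16 for LI monolayers against LI tissue, 15 for SI tissue against LI tissue, 20 for SI monolayers against LI monolayers and 18 for the interaction, against 20, 29, 29, 36 and 28 without this filter, since fewer members entered. Leaving out 1 library at a time gave 16 to 22, 27 to 32, 25 to 30, 34 to 37 and 26 to 31 in the same order, and 15 of 20, 27 of 29, 23 of 29, 33 of 36 and 22 of 28 calls were kept in all 12 fits. Every other alternative kept these counts within 1.5 times. Under the filter of at least 10 counts, 9 members were called for SI monolayers against SI tissue and 18 for the interaction. For both, the direction and the share of all genes are not given here, so these counts cannot be set against all genes. Upper quartile scaling moved the median of all genes in LI from -0.05 to -0.17.

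Deviations of same-numbered libraries from their group means correlated between -0.05 and 0.06. Libraries with different numbers were not compared, and SI and LI came from the same mice, so a pairing by mouse cannot be judged. With the replicate block the counts were 19, 28, 28, 36 and 29. Of the single members' values recomputed under all alternatives, 1967 kept their side of the threshold and direction, 51 lost the call and 30 gained one, and none was reversed. Levels at or below 0.0525 CPM are at the limit of detection, and members sharing sequence may share reads.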

Other observations

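The 27 genes with names ending in -ps were left out of the members. Of these, 13 had no count and 6 were tested. Cyp2d37-ps had 5.37, 5.53 and 4.36 CPM in LI tissue and a mean of 0.333 CPM in LI monolayers, a log2 fold change of -3.94 (adjusted p = 2.15e-08), and it was lower in SI tissue by -5.18 (adjusted p = 7.6e-09). The libraries of LI tissue were above all others. Cyp2c52-ps had 2.49, 1.53 and 2.69 CPM in SI monolayers and a mean of 0.173 CPM in SI tissue, a log2 fold change of 3.70 (adjusted p = 7.86e-06).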
